A study of Tribolium castaneum with 183 samples.

Results

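Phantom (TC001916), Disembodied (TC014691) and Shade (TC011231) are *Tribolium castaneum* (red flour beetle) genes that act in making ecdysteroids. Their RNA levels were compared between females kept in heat, in drought, in both or in neither. The 3 genes were chosen by identifier, with names from the study's supplementary list of expression changes in reproduction genes. They are 3 of 17078 genes in the count table and 3 of 12113 genes tested. Every gene of that supplementary list had passed the study's own test in the Hot or the Hot-Dry condition on the same females. The calls of the 3 genes in those conditions are therefore not independent evidence of their direction. The same limit holds where their changes with heat are set against those of all genes. The ecdysteroid, ovarian and vitellogenin lists used below come from another supplementary list, of reproduction-related genes, which also holds genes not called here. No sequence, gene length or position was at hand for these identifiers, so none is given.

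Ecdysteroids are the steroid hormones that time moulting in young insects and act on the ovary in adult females. They are made from dietary sterols by a chain of cytochrome P450 enzymes known from *Drosophila melanogaster* as the Halloween genes. In that species Spookier acts at an early step, Phantom, Disembodied and Shadow each add a hydroxyl group to the growing steroid, and Shade turns ecdysone into its most active form. The hormone then acts through a receptor made of EcR and USP and through further nuclear receptors.

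The data are whole-body RNA-seq libraries of single females of the Cro1 strain, aged 8 weeks in the labels, while the study's text gives a later age. They comprise 43 females in Hot-Dry (37°C and 30% relative humidity), 45 in Hot (37°C and 70%), 48 in Dry (33°C and 30%) and 47 in Control (33°C and 70%). The females belonged to 12 full-sib families, taken here from the number that begins a sample's name, with 3 or 4 females per family and condition. According to the methods, each family was split over the conditions as separate vials of eggs, so that females of 1 family in 1 condition had shared a vial. The study states that the beetles stayed in their condition from the egg stage on. Females were mated and left to lay eggs in a fitness assay before they were frozen. In whole-body RNA, fewer cells of a type and less RNA per cell cannot be told apart.

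The libraries held between 4873334 and 15533288 counts on genes. No female had 0 counts for any of the 3 genes. Phantom had between 73 and 327 counts per female, Shade between 235 and 1003, and Disembodied between 669 and 3185. Counting error at the median count was 7.54% for Phantom, 4.18% for Shade and 2.5% for Disembodied, which is below the spread between females of 1 condition in each gene. The 2 vitellogenin genes, whose products are the yolk proteins, took a median of 12.9% of counts in Hot-Dry, 15.1% in Hot, 18.5% in Dry and 18.1% in Control. In 4 females, 3 of them Hot-Dry and 1 Hot, they took less than 1% of counts. The fold changes between conditions were also computed without these 4. So were the correlations of the 3 genes with each other and with the ovarian list described below, within Hot-Dry and within Hot. The tests over families, the shares of variance and the other correlations include these females.

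All 3 genes were lower at 37°C at both humidities, with changes from Control between -19.3% and -12.0%. None of the 3 was called in Dry. Levels are in cpm, counts scaled to the size of each library after normalization by the trimmed mean of M-values, a scale that allows each gene to be compared between females but not 1 gene with another. A gene was called when the adjusted p of edgeR's quasi-likelihood test, over all genes tested, was 0.05 or less. In both Hot-Dry and Hot, 3 of 3 genes were called lower, where 15.1% of all genes tested were called lower in Hot-Dry and 12.2% in Hot. In Dry, 0 of 3 were called and 0.809% of all genes were called in either direction. This test takes females that shared a vial as independent. With counts summed per family and condition, Disembodied alone of the 3 stayed called in Hot-Dry and in Hot. Of all genes tested, 10.8% were then called in either direction in Hot-Dry and 6.11% in Hot.

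**Figure D1:**
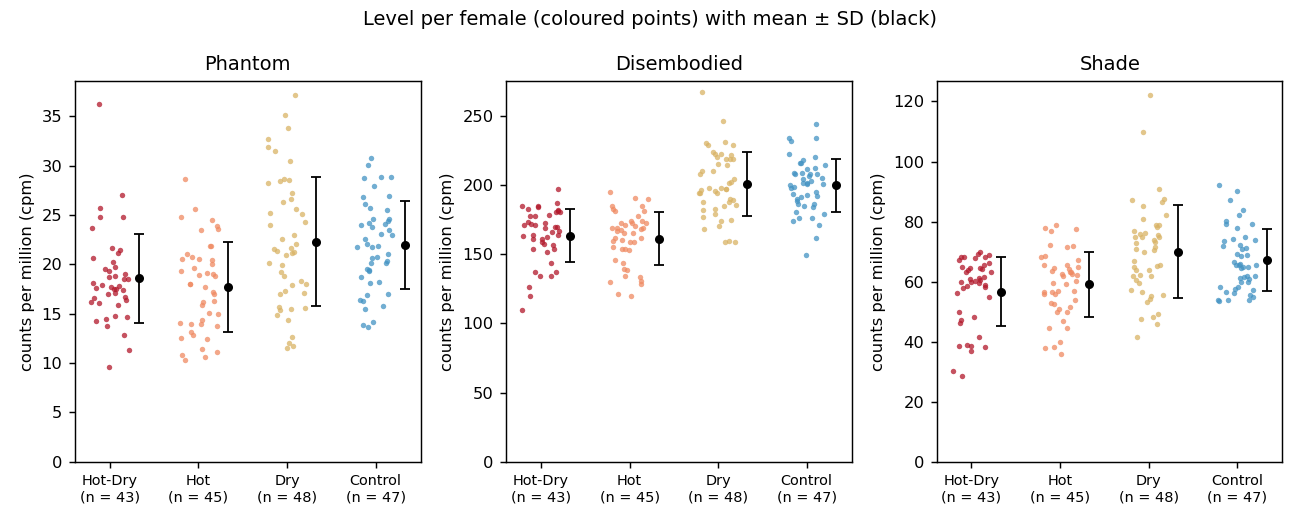
Level of Phantom, Disembodied and Shade in cpm (vertical axis, from 0) in each female, by condition. Coloured points are single females and black points with bars are the mean ± SD. The 43 Hot-Dry and 45 Hot females lie lower than the 47 Control females in all 3 genes, with wide overlap for Phantom and Shade and less for Disembodied.

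Disembodied, a hydroxylase of the steroid's side chain in *Drosophila*, had the most uniform fall. In Hot-Dry its level had a lowest value of 109.7, a median of 166.6 and a highest value of 197.4 cpm. In Hot these were 119.9, 165.6 and 195.2 cpm, in Dry 158.8, 197.9 and 267.5 cpm, and in Control 149.3, 201.1 and 244.3 cpm. All 43 Hot-Dry females and all 45 Hot females lay below the Control median, and 8 and 11 of them below the lowest Control female. Of all pairs of a Hot-Dry and a Control female, 92.3% had the lower level in Hot-Dry, and in 93.3% of pairs the Hot female was lower than the Control female. In Dry, 49.7% of pairs were lower, and 26 of 48 females lay below the Control median.

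The mean of Disembodied was 163.6 ± 19.5 cpm in Hot-Dry (SD, n = 43), 161.4 ± 19.3 cpm in Hot (SD, n = 45), 201.0 ± 23.3 cpm in Dry (SD, n = 48) and 199.9 ± 19.2 cpm in Control (SD, n = 47). The log2 fold change was -0.29 in Hot-Dry (standard error 0.036, adjusted p = 1.01e-11, edgeR quasi-likelihood test). In Hot it was -0.31 (standard error 0.035, adjusted p = 7.45e-13), which placed the gene 21 of 12113 by p-value. The change in Hot was moderate in size, since 5.87% of all genes tested had a lower log2 fold change there. The position by p-value went with a small spread between females. Its SD within conditions was 0.17 on the log2 scale, and 4.95% of all genes tested had a smaller one. Of the 1000 genes nearest in level, 11.2% had a smaller one.

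Phantom, the other hydroxylase acting on the side chain in *Drosophila*, fell by a like amount but varied more. In Hot-Dry its level had a lowest value of 9.60, a median of 17.8 and a highest value of 36.2 cpm. In Hot these were 10.3, 18.03 and 28.7 cpm, in Dry 11.5, 21.5 and 37.2 cpm, and in Control 13.7, 21.9 and 30.8 cpm. In both Hot-Dry and Hot, 37 females lay below the Control median, but the ranges overlapped over most of their length. Only 3 Hot-Dry and 9 Hot females were below the lowest Control female, and 1 Hot-Dry female was above the highest.

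Phantom averaged 18.6 ± 4.55 cpm in Hot-Dry (SD, n = 43), 17.7 ± 4.55 cpm in Hot (SD, n = 45), 22.3 ± 6.55 cpm in Dry (SD, n = 48) and 21.9 ± 4.47 cpm in Control (SD, n = 47). Its log2 fold change was -0.24 in Hot-Dry (standard error 0.077, adjusted p = 0.0101, edgeR quasi-likelihood test) and -0.31 in Hot (standard error 0.076, adjusted p = 0.00102). With counts summed per family and condition, neither call held (adjusted p = 0.204 in Hot-Dry and 0.0951 in Hot), and both held when family was added to that fit as a block. The pairs of females in which the stressed female had the lower level made up 72.2% in Hot-Dry and 74.2% in Hot, and 50.4% in Dry.

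Shade, which makes the active hormone, had a lowest value of 28.5, a median of 60.0 and a highest value of 69.7 cpm in Hot-Dry. In Hot these were 36.0, 60.1 and 78.8 cpm, in Dry 41.5, 70.6 and 122.1 cpm, and in Control 53.4, 65.6 and 92.1 cpm. The Hot-Dry and Hot medians were close to each other, and 12 Hot-Dry and 13 Hot females lay below the lowest Control female, while the rest lay within the Control range. No Hot-Dry or Hot female exceeded the highest Control female, and 2 Dry females did.

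Shade averaged 56.7 ± 11.5 cpm in Hot-Dry (SD, n = 43), 59.1 ± 10.9 cpm in Hot (SD, n = 45), 70.0 ± 15.5 cpm in Dry (SD, n = 48) and 67.2 ± 10.2 cpm in Control (SD, n = 47). Its log2 fold change was -0.25 in Hot-Dry (standard error 0.060, adjusted p = 0.000564, edgeR quasi-likelihood test) and -0.18 in Hot (standard error 0.059, adjusted p = 0.0128). The call in Hot rested on family 863, without which the change was -0.14 (adjusted p = 0.0765). With counts summed per family and condition the adjusted p was 0.119 in Hot-Dry and 0.313 in Hot, and with family as a block in that fit the Hot-Dry call held while Hot had 0.0728.

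Leaving out the 4 females with under 1% vitellogenin counts kept all 3 genes called in both conditions. Of all genes tested, 28.0% were then called in either direction in Hot-Dry and 24.3% in Hot. The log2 fold changes in Hot-Dry were then -0.27 for Disembodied, -0.26 for Phantom and -0.19 for Shade, and in Hot -0.30, -0.29 and -0.17 in the same order. The 3 Hot-Dry females among them had Shade at 28.5, 30.1 and 36.9 cpm, and these were 3 of the 4 lowest Shade values of all females of the series. One of them, female 4 of family 293, had Phantom at 36.2 cpm, the second highest value of all females, although her Shade was the second lowest. Without the 3, the Hot-Dry females ranged from 38.1 to 69.7 cpm for Shade and from 9.60 to 27.0 cpm for Phantom.

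The falls at 37°C did not pass the test for a dependence on humidity. In the comparison of Hot-Dry with Hot, 0 of 3 genes were called, where 2.28% of all genes were called in either direction. The log2 difference was 0.07 for Phantom (95% interval -0.09 to 0.22), 0.02 for Disembodied (-0.05 to 0.09) and -0.06 for Shade (-0.18 to 0.06). The interaction of heat and drought called 0 of 3, and 1 of 12113 genes in all (0.00826%). Its estimates were 0.05 for Phantom (95% interval -0.17 to 0.26), 0.01 for Disembodied (-0.09 to 0.11) and -0.12 for Shade (-0.28 to 0.04). These intervals leave room for an interaction as large as the Hot-Dry fall itself in Phantom and in Shade, and bound it more closely in Disembodied.

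Drought without heat gave small estimates that were not called. In Dry against Control the log2 fold change was 0.02 for Phantom (95% interval -0.13 to 0.17), 0.01 for Disembodied (-0.06 to 0.08) and 0.06 for Shade (-0.06 to 0.17). A fall in Dry of the size seen in Hot lies outside the interval of each gene. Averaged over both temperatures, drought called 0 of 3 genes, where 4.85% of all genes were called in either direction. The averaged estimates were 0.04 for Phantom, 0.01 for Disembodied and -0.0016 for Shade.

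Heat was also compared with the cooler condition in dry air. In Hot-Dry against Dry, 3 of 3 genes were called lower (15.8% of all genes tested), with log2 fold changes of -0.26 for Phantom, -0.30 for Disembodied and -0.30 for Shade. This comparison shares its Hot-Dry females with the one against Control. The Phantom call was lost with counts summed per family and condition (adjusted p = 0.202), in limma-voom with a correlation within family and condition (adjusted p = 0.216), when scaled to the ovarian list described below (-0.10, adjusted p = 0.241) and in the exact sign-flip test over families (adjusted p = 0.0994). In Hot against Dry, which differ in both temperature and humidity, 3 of 3 were called lower (16.1% of all genes tested), with -0.33 for Phantom, -0.32 for Disembodied and -0.24 for Shade. With summed counts neither Phantom (adjusted p = 0.0698) nor Shade (adjusted p = 0.117) was called, and Phantom was not called with the correlation (adjusted p = 0.0503) or in the exact sign-flip test (adjusted p = 0.0545). Averaged over both humidities, heat called 3 of 3 lower, where 22.5% of all genes tested were called lower. The averaged log2 change was -0.28 for Phantom (standard error 0.054, adjusted p = 3.62e-06, edgeR quasi-likelihood test), -0.30 for Disembodied (standard error 0.025, adjusted p = 1.29e-22) and -0.24 for Shade (standard error 0.042, adjusted p = 3.1e-07). The median of all genes tested was -0.0079. Heat averaged over humidities kept its call in all 3 genes under each of 17 alternative analyses and without each of the 12 families in turn.

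The females of 1 family in 1 condition are not independent of each other, so the 12 families were also taken as the unit, with an exact two-sided sign-flip permutation test on their mean log2 cpm, adjusted over all genes tested. Disembodied was lower in 12 of 12 families in Hot-Dry, with a mean of -0.29 ± 0.10 (SD over 12 families; exact p = 0.000488, the smallest this test allows, adjusted p = 0.011). It was also lower in 12 of 12 families in Hot, with -0.31 ± 0.11 (SD over 12 families; exact p = 0.000488, adjusted p = 0.0198). A fall in all 12 families was found in 1.73% of genes tested in Hot-Dry and in 1.27% in Hot.

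Phantom was lower in 9 of 12 families in Hot-Dry (mean -0.24 ± 0.22, SD over 12 families; adjusted p = 0.0381 from the exact sign-flip test) and in 11 of 12 in Hot (-0.33 ± 0.25; adjusted p = 0.0301). Shade was lower in 11 of 12 families in Hot-Dry (-0.25 ± 0.25; adjusted p = 0.0149) and in 10 of 12 in Hot (-0.19 ± 0.26; adjusted p = 0.129, not called). By this test 7.57% of genes were called lower in Hot-Dry and 4.38% in Hot. For heat averaged over humidities all 3 genes were called (adjusted p = 0.00674 for Disembodied and Shade and 0.0118 for Phantom), where the test called 12.7% of genes lower. In Dry the test called 0 of 12113 genes, and the families were split 7 to 5 for Phantom and Disembodied and 8 to 4 for Shade in favour of a higher mean in Dry.

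**Figure D2:**
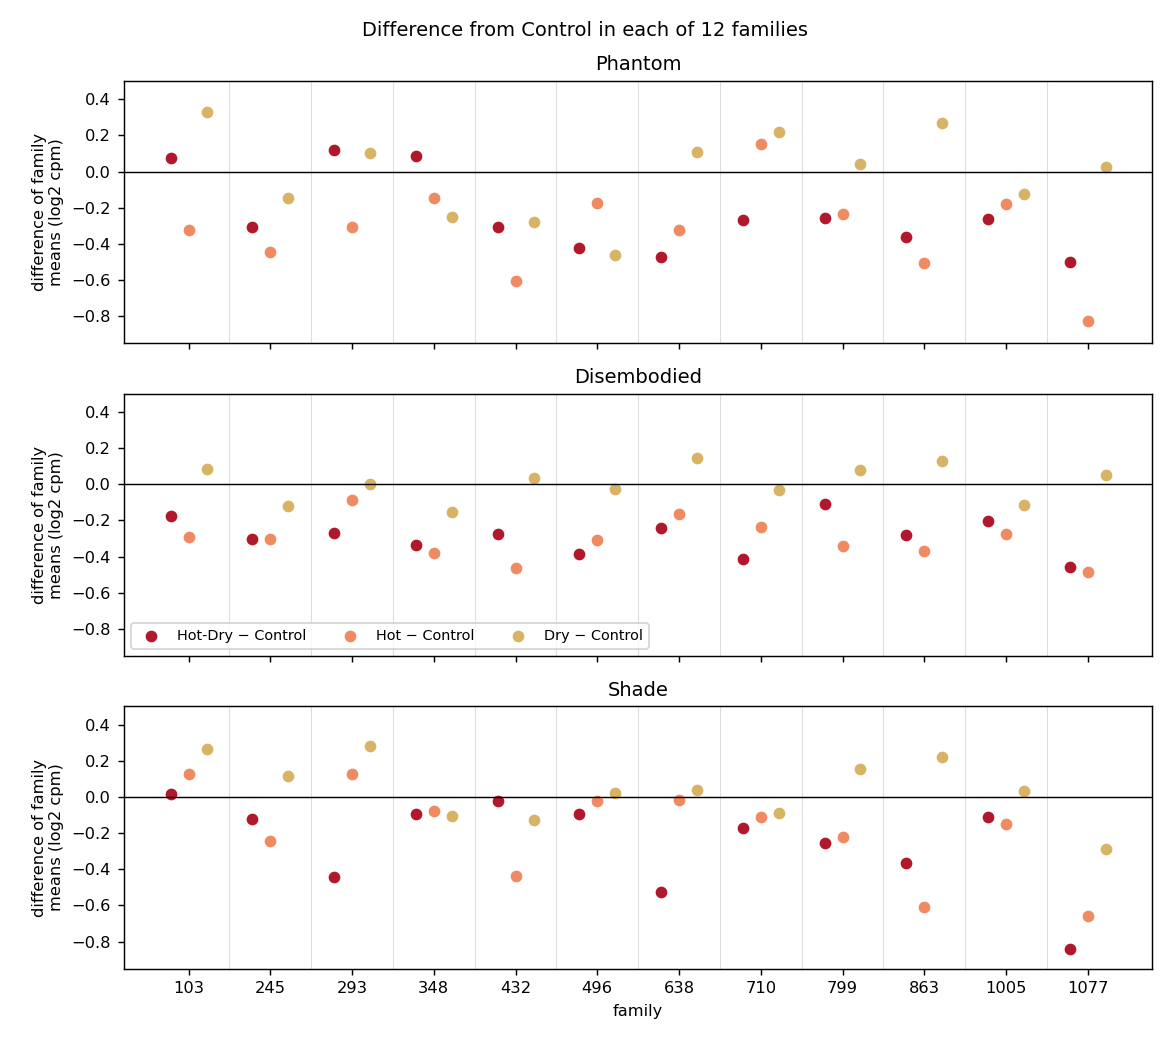
Difference of the family mean from Control (vertical axis, log2 cpm) for each of 12 families (horizontal axis), in Hot-Dry, Hot and Dry, for Phantom, Disembodied and Shade. The Hot-Dry and Hot points of Disembodied lie below 0 in 12 of 12 families, and family 1077 has the lowest Hot points of Phantom and Disembodied and the lowest Hot-Dry point of Shade.

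The families differed in how far the genes fell. Averaged over humidities, all 3 genes were lower with heat in 11 of 12 families, and the exception was family 348, in which Phantom was higher by 0.10. Family 1077 had the greatest falls in each gene, with log2 changes of -0.67 for Phantom, -0.50 for Disembodied and -0.61 for Shade. Family 863 followed with -0.57, -0.39 and -0.60 in the same order. At the other end, Disembodied had -0.18 in families 293 and 1005, and Shade had -0.03 in family 348. In Hot-Dry alone, the greatest Shade falls were in families 1077 (-0.84), 638 (-0.52) and 293 (-0.44). These 3 families held the 3 Hot-Dry females with under 1% vitellogenin counts, whose values are part of the family means. The other Hot-Dry females had Shade at 38.1 to 41.5 cpm in family 1077, 48.1 to 65.4 cpm in 638 and 46.1 to 64.8 cpm in 293. Control means of Shade were 65.5, 75.0 and 61.1 cpm in the same order.

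Across the 12 families, the averaged heat changes of Phantom and Shade went together most closely, with Pearson's r of 0.84 and Spearman's rho of 0.67. Without families 1077 and 348, the farthest from the median in Phantom, r was 0.74. Family 863, with large falls in both genes, was kept in this check. Phantom and Disembodied had r of 0.61 and rho of 0.47, and r of 0.45 without the same 2 families. Disembodied and Shade had r of 0.51 and rho of 0.15, and r was -0.38 without families 1077 and 863, so that this relation rested on those families. The families left out were chosen by the first gene of each pair, so the check on this pair was not like that on the others. The family mean levels over the 4 conditions gave another order, with r of 0.74 between Disembodied and Shade, 0.53 between Phantom and Disembodied and 0.52 between Phantom and Shade. These values are a description, since the points share their vials, their libraries and the conditions compared.

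The test of family by condition was passed by Shade (F = 2.69, adjusted p = 0.000181, edgeR quasi-likelihood test) and Phantom (F = 1.95, adjusted p = 0.00932) and not by Disembodied (F = 1.28, adjusted p = 0.212), while 61.4% of all genes tested passed it. With 1 vial per family and condition, a family's own response and its vial cannot be told apart. Level differences between families, tested on counts summed per family and condition, were called in all 3 genes, where 77.0% of all genes tested were called. Phantom had F = 6.42 (adjusted p = 5.89e-05), Shade F = 4.68 (adjusted p = 0.000642) and Disembodied F = 3.99 (adjusted p = 0.00189), all by the edgeR quasi-likelihood test.

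The family means over the 4 conditions ran from 15.1 cpm in family 348 to 26.0 cpm in family 293 for Phantom, a ratio of 1.73. For Shade they ran from 49.5 cpm in family 1077 to 78.5 cpm in family 863, a ratio of 1.59, and for Disembodied from 168.1 cpm in family 1077 to 198.4 cpm in family 103, a ratio of 1.18. Disembodied thus had the narrowest range of families and the largest part of its variance between conditions. Condition took 45.8% of the variance of log2 cpm in Disembodied, 16.7% in Shade and 13.4% in Phantom, against a median of 3.89% over all genes tested. These genes were listed for a change in Hot or Hot-Dry on the same females. Shares above that median are therefore not independent evidence of a response to condition. The family took 32.7% in Phantom, 31.8% in Shade and 15.6% in Disembodied.

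Family 863 also held the highest females. Its female 1 of the Dry condition had the highest level of all females of the series in each of the 3 genes, with 37.2 cpm for Phantom, 267.5 cpm for Disembodied and 122.1 cpm for Shade, and the highest Shade values of Control and Dry females were in this family. Female 3 of family 710 in Hot-Dry had the lowest level of both Phantom (9.60 cpm) and Disembodied (109.7 cpm).

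Among females of the same condition the 3 genes went up and down together to a moderate degree. With condition means removed, Pearson's r over all females was 0.51 between Disembodied and Shade, 0.49 between Phantom and Shade and 0.36 between Phantom and Disembodied. With family-and-condition means removed, r was lower for each pair, at 0.36, 0.44 and 0.18 in the same order. These are descriptions across females that share vials, families and the normalization of their library. Other genes were more like each of them: among the 8755 genes that averaged 5 cpm or more Disembodied stood at place 799 in likeness to Shade and at place 1796 in likeness to Phantom. In likeness to Disembodied, Shade stood at place 91 and Phantom at place 548.

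The link between Phantom and Shade was weakest in Hot-Dry. Pearson's r was 0.11 in Hot-Dry, 0.69 in Hot, 0.61 in Dry and 0.56 in Control. Without the 3 Hot-Dry females with under 1% vitellogenin counts it was 0.41 in Hot-Dry. Disembodied and Shade had r of 0.59 in Hot-Dry, 0.46 in Hot, 0.61 in Dry and 0.27 in Control. With family-and-condition means removed, r in Hot was -0.11 for Disembodied and Shade and -0.11 for Phantom and Disembodied. For Phantom and Shade it was then 0.52 in Hot.

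**Figure D3:**
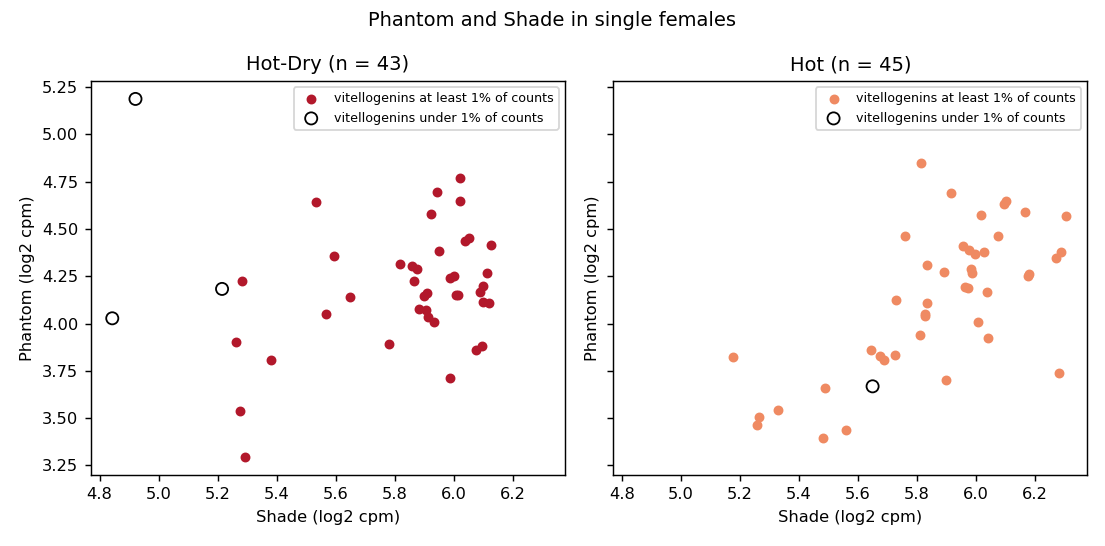
Phantom (vertical axis, log2 cpm) against Shade (horizontal axis, log2 cpm) in single females of Hot-Dry (left, n = 43) and Hot (right, n = 45). Black circles are the 3 Hot-Dry females and the 1 Hot female with under 1% of counts on vitellogenins, and the Hot-Dry circles have Shade at 28.5 to 36.9 cpm.

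By the likeness of their deviations from condition means, TC012372 was closest to Disembodied (r = 0.75) and was itself lower with heat (log2 change -0.23, adjusted p = 3.46e-09, edgeR quasi-likelihood test). TC001885 was closest to Shade (r = 0.80) with a heat change of 0.07 that was not called, and TC013167 was the second for both Disembodied (r = 0.67) and Shade (r = 0.77). TC011945 was closest to Phantom (r = 0.70). With family-and-condition means removed, the closest to Disembodied was TC011262 (r = 0.70), which the study lists as an ovarian RNA-binding protein, and TC012372 was the next (r = 0.67). TC011040 was then closest to Shade (r = 0.74) and TC000267 to Phantom (r = 0.69). The files do not name the other genes.

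The ovary is known as a site where adult female insects make ecdysteroids, and the study lists 14 putative ovarian genes. Of these, 7 of 14 were called lower and 0 higher in both Hot-Dry and Hot, where 15.1% and 12.2% of all genes tested were called lower, with median log2 fold changes of -0.17 in Hot-Dry and -0.08 in Hot, against medians of -0.0085 and -0.0055 over all genes tested. The summed level of the list averaged 1318 ± 90.6 cpm in Hot-Dry (SD, n = 43), 1357 ± 114 cpm in Hot (SD, n = 45), 1465 ± 85.1 cpm in Dry (SD, n = 48) and 1472 ± 73.0 cpm in Control (SD, n = 47). It ran from 1053 to 1447 cpm in Hot-Dry, from 1107 to 1545 cpm in Hot, from 1300 to 1739 cpm in Dry and from 1266 to 1624 cpm in Control. Among the 14 genes, TC011220 was at 0 in 2 females and the others were at 0 in none. Piwi, of the pathway that silences transposons in the germ line, made 24.3% of the sum and TC009471 24.4%.

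With condition means removed, Pearson's r with this sum over all females was 0.57 for Shade, 0.53 for Disembodied and 0.35 for Phantom. In Hot-Dry alone it was 0.79 for Shade, 0.59 for Disembodied and 0.27 for Phantom. Without the 3 Hot-Dry females with under 1% vitellogenin counts, these were 0.75, 0.52 and 0.44. In Hot it was 0.51 for Shade, 0.62 for Disembodied and 0.49 for Phantom. With family-and-condition means removed, r over all females was 0.52 for Shade, 0.52 for Disembodied and 0.23 for Phantom. The ovarian RNA-binding protein TC011262 closest to Disembodied is part of the sum and makes 12.4% of it. Of the 3 genes, Shade therefore went most closely with the ovarian list among Hot-Dry females, and Phantom did so least. The link was not particular to these genes. Among the other synthesis genes the study lists, r with the sum in Hot-Dry was 0.67 for Spookier, 0.50 for Shadow and 0.19 for Spookier-related. Among Hot females, Disembodied went most closely with the list.

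**Figure D4:**
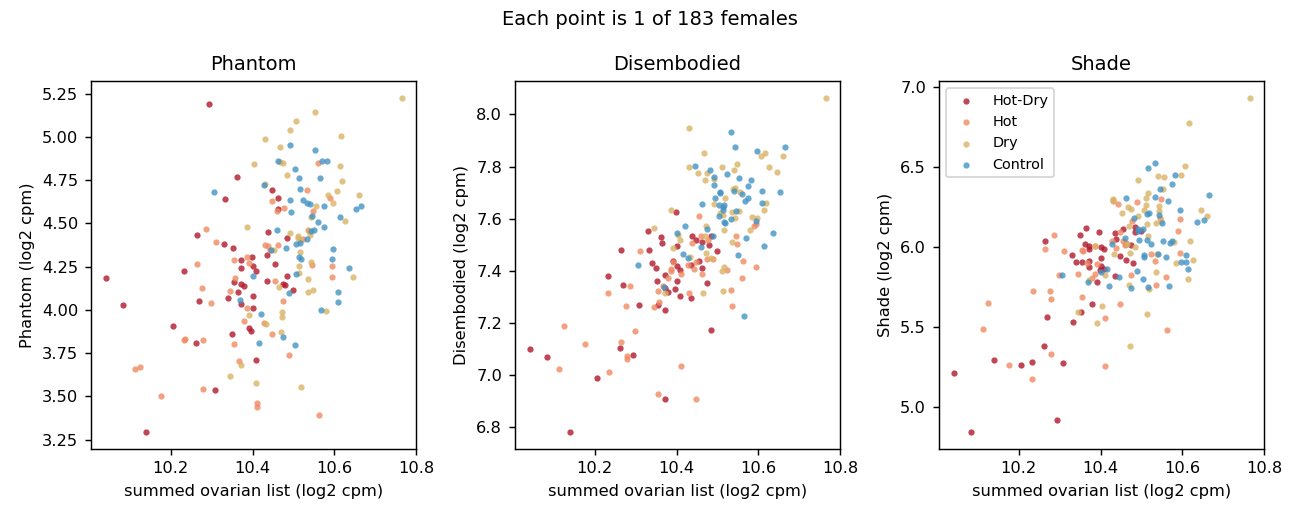
Level of Phantom, Disembodied and Shade (vertical axes, log2 cpm) against the summed level of 14 ovarian genes (horizontal axes, log2 cpm) in every female, coloured by condition. Hot-Dry and Hot females lie toward the lower left, and Pearson's r within conditions is highest for Shade in Hot-Dry, at 0.79.

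When libraries were scaled to the ovarian sum in place of the whole library, the median of all genes moved to 0.16 in Hot-Dry and 0.12 in Hot. Disembodied stayed called on this scale, with a log2 fold change of -0.13 in Hot-Dry (adjusted p = 0.000179, edgeR quasi-likelihood test) and -0.19 in Hot (adjusted p = 1.01e-07). Phantom was -0.08 in Hot-Dry (adjusted p = 0.356) and -0.20 in Hot (adjusted p = 0.0239). Shade was -0.10 in Hot-Dry (adjusted p = 0.112) and -0.07 in Hot (adjusted p = 0.294). Averaged over humidities, all 3 genes were still called lower with heat, with log2 changes of -0.17 for Disembodied, -0.15 for Phantom and -0.11 for Shade. On this scale averaged heat called 57.9% of all genes tested in either direction, and 89.6% of those called were higher. The part of ovarian tissue in the results was not tested beyond these values.

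The other genes of the synthesis pathway were not called lower with heat. Of the 6 synthesis genes the study lists, 3 were called lower in Hot-Dry and in Hot (15.1% and 12.2% of all genes tested), and these were Phantom, Disembodied and Shade themselves. Shadow (TC014274), the hydroxylase between Disembodied and Shade, averaged 11.7 ± 3.47 cpm in Hot-Dry (SD, n = 43), 11.7 ± 3.39 cpm in Hot (SD, n = 45), 12.4 ± 4.30 cpm in Dry (SD, n = 48) and 11.9 ± 3.33 cpm in Control (SD, n = 47). Its log2 fold change was -0.02 in both Hot-Dry and Hot, with adjusted p of 0.894 and 0.914 in the edgeR quasi-likelihood test. Since the 3 genes were listed for their change and Shadow was not, no test of the difference between them is given.

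Spookier (TC004159), of an early step, had a lowest value of 1.32, a median of 7.14 and a highest value of 12.6 cpm in Hot-Dry. In Hot these were 2.5, 8.49 and 24.8 cpm, in Dry 3.52, 6.71 and 13.4 cpm, and in Control 0.65, 7.82 and 16.6 cpm. Neither Hot-Dry nor Hot differed from Control in a call (log2 fold changes of -0.16 and 0.22). Spookier was higher in Hot than in Dry, by 0.41 on the log2 scale (adjusted p = 0.00339, edgeR quasi-likelihood test), a comparison in which Phantom, Disembodied and Shade were each lower. The call was lost in limma-voom with the correlation within family and condition (0.39, adjusted p = 0.171), and the exact sign-flip test over families gave an adjusted p of 0.0618.

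It was also the 1 synthesis gene called for drought, with a log2 change of -0.28 averaged over both temperatures (adjusted p = 0.0245, edgeR quasi-likelihood test). The family means were lower with drought in 12 of 12 families (exact p = 0.000488, adjusted p = 0.0789 over all genes tested), and the call was lost with limma-voom (adjusted p = 0.103, and 0.847 with the correlation), with counts summed per family and condition (adjusted p = 0.256) and without any 1 of families 245, 638 or 710. Spookier-related (TC015030) was near the floor of detection, with a median of 10 counts per female in both Hot-Dry and Control, 11 in Hot and 7.5 in Dry. Its level was called higher in Hot-Dry than in Dry (log2 0.32, adjusted p = 0.0335, edgeR quasi-likelihood test) and in Hot than in Dry (0.39, adjusted p = 0.00729), and both calls were lost with summed counts (adjusted p = 0.173 and 0.093) and with the correlation (adjusted p = 0.268 and 0.232). The call against Dry in Hot-Dry was also lost without any 1 of families 293, 348, 432, 496, 710 or 799.

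**Figure D5:**
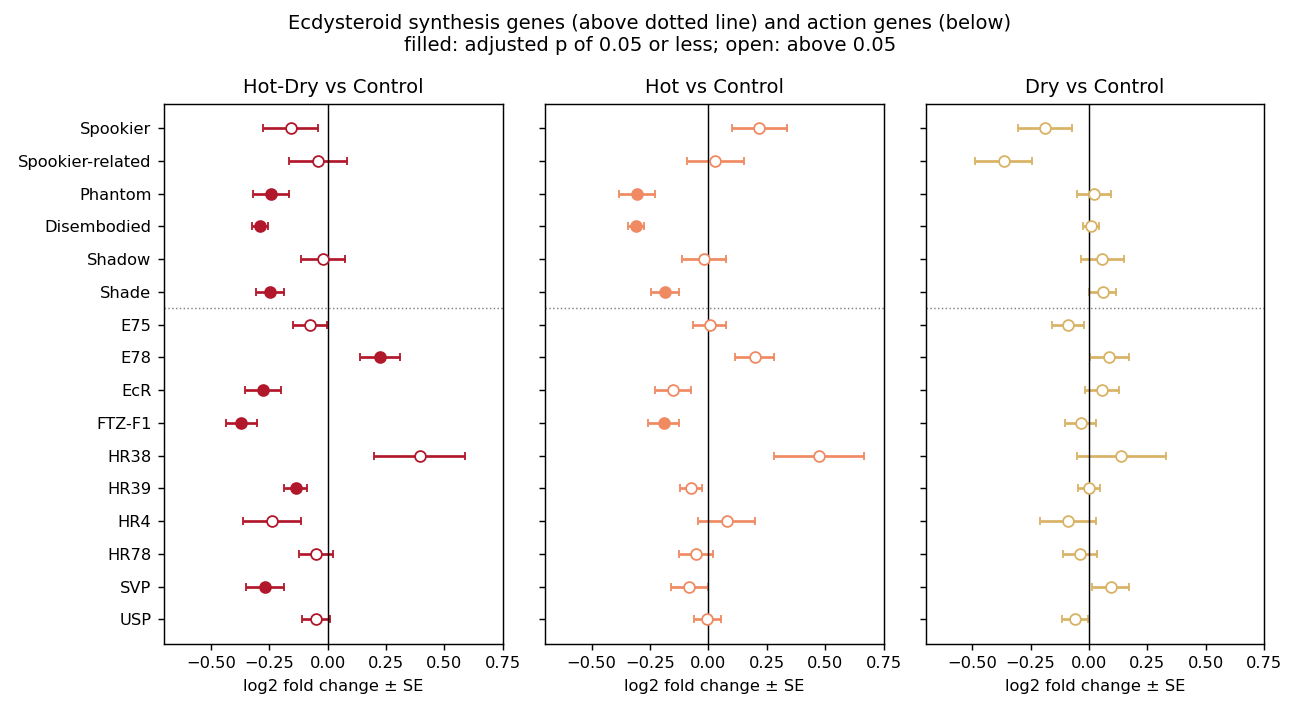
Log2 fold change with its standard error (horizontal axes) of 6 ecdysteroid synthesis genes (above the dotted line) and 10 ecdysteroid action genes (below it) in Hot-Dry, Hot and Dry against Control. Filled points have an adjusted p of 0.05 or less, and among the synthesis genes these are Phantom, Disembodied and Shade in Hot-Dry and Hot, while no gene is filled in Dry.

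Of the 10 genes through which the hormone acts, 4 were called lower and 1 higher in Hot-Dry, where 30.7% of all genes tested were called in either direction. In Hot 1 was called lower and 0 higher, where 25.1% of all genes were called. In Dry 0 of 10 were called. The median log2 fold change of the 10 was -0.11 in Hot-Dry and -0.03 in Hot, and that of the 6 synthesis genes was -0.20 in Hot-Dry and -0.10 in Hot.

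The greatest fall among them was that of FTZ-F1, a nuclear receptor that makes tissues competent to respond to ecdysteroids in other insects. It averaged 57.9 ± 12.4 cpm in Hot-Dry (SD, n = 43), 65.4 ± 16.0 cpm in Hot (SD, n = 45), 72.9 ± 12.8 cpm in Dry (SD, n = 48) and 74.7 ± 18.4 cpm in Control (SD, n = 47). Its log2 fold change was -0.37 in Hot-Dry (adjusted p = 4.11e-06, edgeR quasi-likelihood test) and -0.19 in Hot (adjusted p = 0.0238). The call in Hot was lost with summed counts (adjusted p = 0.268), with the correlation within family and condition (adjusted p = 0.266), under the ovarian scaling (-0.07, adjusted p = 0.359) and without the 6 smallest libraries (adjusted p = 0.0945). It was also lost when any 1 of families 432, 496, 863 or 1077 was left out.

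EcR, the ecdysone receptor, had a log2 fold change of -0.28 in Hot-Dry (adjusted p = 0.00275) and -0.15 in Hot (adjusted p = 0.134, both, edgeR quasi-likelihood test). In Hot-Dry its call was lost with summed counts (adjusted p = 0.0582), with the correlation within family and condition (adjusted p = 0.079), when libraries were scaled to the ovarian sum (-0.11, adjusted p = 0.197) and in the exact sign-flip test (adjusted p = 0.084). The nuclear receptor SVP was also lower in Hot-Dry (-0.27), a call lost with summed counts (adjusted p = 0.191), with the correlation (adjusted p = 0.0799), under the ovarian scaling (-0.10, adjusted p = 0.304) and in the exact sign-flip test (adjusted p = 0.119). HR39 was lower (-0.14), and its change was 0.02 under the ovarian scaling. E78 was higher in Hot-Dry (0.22, adjusted p = 0.0337, at a median of 27 counts). With summed counts neither HR39 (adjusted p = 0.299) nor E78 (adjusted p = 0.154) was called, nor was either with the correlation (adjusted p = 0.144 and 0.317). Neither HR39 (adjusted p = 0.0641) nor E78 (adjusted p = 0.0531) was called there without the 4 females with under 1% vitellogenin counts. E78 lost its call also without any 1 of families 103, 245, 348, 432, 496 or 710, and HR39 without family 293 or 710. The receptor's partner USP and the early response gene E75 were not called in any of the 3 conditions, with log2 fold changes between -0.09 and 0.0062. HR4 and HR78 were not called either, and HR38, with log2 fold changes of 0.39 in Hot-Dry and 0.47 in Hot that were not called, was called higher with heat averaged over humidities (0.36, adjusted p = 0.0211), a call that was lost with summed counts (adjusted p = 0.174) and without any 1 of families 348, 799, 863 or 1005.

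The vitellogenin receptor genes, through which yolk enters the egg, were lower in the same conditions. Of 4 listed genes, 3 were called lower in both Hot-Dry and Hot (15.1% and 12.2% of all genes tested), with median log2 fold changes of -0.31 in Hot-Dry and -0.34 in Hot. In Dry 0 of 4 were called, where 0.809% of all genes were called in either direction. The receptor calls, too, come from the fit that takes females of 1 vial as independent. Their part in the levels of Phantom, Disembodied and Shade was not tested.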

How the data were processed

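The authors extracted RNA from whole single females, built 1 library from each with a Lexogen mRNA kit, sequenced single ends, trimmed the reads, mapped them with STAR 2.5 to the Tcas3 genome of Ensembl Metazoa and counted reads per gene with featureCounts. The deposited table holds these raw counts for 17078 genes. How strand and multiply mapped reads were handled is not given in the sources used here, so a gene with a near-identical copy or an overlapping neighbour is uncertain. Every column was assigned to its condition by its own label, with 0 columns left over.

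Tested were the 12113 genes with over 0.5 cpm in 5 or more females. Counts were normalized by the trimmed mean of M-values (TMM), and edgeR 4.0.16 in R 4.3.3 fitted the 4 condition means over the whole series (quasi-likelihood test). The Benjamini-Hochberg adjustment ran over all genes tested, with 0.05 as threshold. Standard errors are the size of the log2 fold change over the square root of F, and 95% intervals span 1.96 of them on either side. A fold change has the condition named first on top. Heat averaged over humidities sets the mean of Hot-Dry and Hot against that of Dry and Control, and averaged drought sets the mean of Hot-Dry and Dry against that of Hot and Control. Log2 cpm used a prior count of 2. At the median library of 8893822 counts, 3 counts make 0.337 cpm. The sign-flip test used all 4096 sign changes over 12 families. The edgeR quasi-likelihood test and the sign-flip test were first run on simulated counts with known changes, for heat averaged over humidities. The simulated counts held no differences between families or vials, and the other procedures were not run on them.

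The 3 genes, the lists and the comparisons were chosen with earlier results of these data known. Named were the 3 genes, all genes of the study's ecdysteroid synthesis and action lists, and genes among the 3 most like each of the 3; other lists are given as counts and medians, apart from Piwi, TC009471 and TC011220 of the ovarian list, which were named after their values were seen. No females of 1 family and condition had identical libraries (261 pairs, lowest chi-square per degree of freedom 12.9). Because 12.9 exceeds sampling noise, all were kept as separate samples. Alternatives used DESeq2 1.42.0, limma 3.58.1, other normalizations, filters and units, and each family left out in turn, and leaving out females with few vitellogenin counts was added after seeing the data. Treatments were randomized over sequencing runs, but the run of each female is not given in the sources used here, so no comparison within runs was made. Lists by annotation (cytochrome P450 and further ecdysteroid genes) were not used here, since these identifiers were not annotated in the reference at hand.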

Additional observations from a re-analysis of the deposited data

Results flagged for a closer look

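The condition differences of Shade were not the same in all families, with F = 2.69 in the test of family by condition (adjusted p = 0.000181, edgeR quasi-likelihood test). Its heat change averaged over humidities was -0.61 on the log2 scale in family 1077 and -0.03 in family 348. Family 1077 held 1 of the 3 Hot-Dry females with under 1% vitellogenin counts, and all females were kept in this test. Phantom passed the same test with F = 1.95 (adjusted p = 0.00932), and its averaged heat change was -0.67 in family 1077 and 0.10 in family 348. The test was passed by 61.4% of all genes tested. Each family had 1 vial per condition, so that vial and family response cannot be told apart.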

How the results depend on the processing

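Of 459 values of the 3 genes under 17 alternatives, 430 kept their direction and call, 16 lost the call and 13 had another sign with neither value called. With counts summed per family and condition, Phantom lost its call in Hot-Dry (-0.23), Hot (-0.32), Hot-Dry against Dry (-0.23) and Hot against Dry (-0.31), and Shade in Hot-Dry (-0.23), Hot (-0.18) and Hot against Dry (-0.23). The number of the 3 genes called lower was then 1 in Hot-Dry, 1 in Hot and 1 in Hot against Dry. With family as a block in that fit only Shade in Hot (-0.18) was lost. Limma-voom with a correlation of 0.35 within family and condition lost Phantom in Hot-Dry (-0.23), Hot-Dry against Dry (-0.20) and Hot against Dry (-0.29), and Shade in Hot (-0.19). Scaling to the ovarian list lost Phantom in Hot-Dry (-0.082) and Hot-Dry against Dry (-0.10), and Shade in Hot-Dry (-0.096) and Hot (-0.069), and left 1 of the 3 called in Hot-Dry.

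Phantom in Dry was -0.0061 with the replicate block, -0.022 with limma-voom, -0.0072 with family as a block, -0.0061 with summed counts and -0.025 with family as a block added, -0.0065 without the 6 smallest libraries and -0.035 with the correlation. Disembodied in Dry was -0.00032 with summed counts and family as a block, -0.0020 without the smallest libraries and -0.014 from family medians. Shade with drought averaged was 0.016 when scaled to the ovarian list, 0.00066 with library size as a covariate, 0.018 without the 4 females with few vitellogenin counts and 0.017 from family medians. The interaction of Disembodied was -0.0017 with library size as a covariate.

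Without 1 family, Shade ranged from -0.21 to -0.14 in Hot, Phantom from -0.0097 to 0.062 in Dry, Disembodied from -0.0046 to 0.019 in Dry and from -0.0053 to 0.035 in Hot-Dry against Hot, Shade with drought averaged from -0.027 to 0.022, and the interaction of Disembodied from -0.011 to 0.034. Same-numbered females of different conditions correlated at a mean of 0.191 (261 pairs, 193 over 0.1), and females of 1 family with other numbers at 0.196, so the numbers were not taken as pairs. The replicate block changed no call of the 3 genes and gave -0.24 for Phantom, -0.29 for Disembodied and -0.24 for Shade in Hot-Dry, with 4257 genes called in Hot-Dry and 3526 in Hot (3722 and 3041 without it). Summed counts called 1313 genes in Hot-Dry and 740 in Hot, the correlation 1467 and 791, and the ovarian scaling 5797 and 4243, of which 91.7% and 90.8% were higher (50.9% and 51.3% with TMM). From family medians the sign-flip test lost Phantom in Hot-Dry (-0.24, adjusted p = 0.0666) and Shade in Hot-Dry against Dry (-0.25, adjusted p = 0.0576). The causes were not tested.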

Other observations

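Spookier, which was not called lower with heat, still varied with Shade from female to female. With condition means removed, Pearson's r of Spookier with Shade was 0.53 over all females, against 0.23 with Phantom and 0.24 with Disembodied. Within conditions the r of Spookier and Shade was 0.69 in Hot-Dry, 0.53 in Hot, 0.62 in Dry and 0.30 in Control. Shadow and Shade had r of 0.59 in Hot-Dry, 0.14 in Hot, 0.12 in Dry and 0.08 in Control. The r of Spookier with the summed ovarian list was 0.49 over all females. These values describe females that share vials, families and the normalization of their library, and no test was made of a difference between conditions.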
